A study of Homo sapiens with 8 samples.

Results

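RASD1 and the genes induced by glucocorticoids were followed in Huh7, an established human hepatocellular carcinoma cell line in which UPF1 was either depleted or overexpressed. The 10 genes were RASD1, TSC22D3, PER1, FKBP5, KLF9, SGK1, ERRFI1, TAT, PCK1 and ZFP36. They were taken by symbol, and 9 of them had a row among the 17076 genes listed. PCK1 had none and was not analysed here. RASD1 was chosen by its values in these libraries, lower after UPF1 depletion and higher after UPF1 overexpression, and the other symbols were added because they are known targets of the glucocorticoid receptor. The values of these genes are therefore given as a description, with standard errors and without p-values.

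RNA-seq was performed on 4 groups of 2 libraries. The siControl group received a scrambled siRNA, and the siUPF1 group an siRNA against UPF1. The MYC group received a vector carrying the MYC epitope tag alone, and the MYC-UPF1 group a vector for MYC-tagged UPF1. All groups were transfected with the same lipid reagent and grown in medium with fetal bovine serum. No glucocorticoid treatment is named in the labels or the methods, so the values are those of cells without a stated hormone stimulus. The siRNA and the plasmid groups differ in what was transfected, and this difference and any difference in day cannot be told apart. Each library lists 1 FPKM value per gene, scaled by transcript length and by the number of mapped fragments, and read depth is unknown. Nothing in the labels or methods says that the 2 libraries of a group came from separate cultures, so their spread may be technical.

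Cortisol and related steroids bind the glucocorticoid receptor in the cytoplasm, where chaperones of the HSP90 machinery hold it in a form that can bind hormone. The bound receptor moves to the nucleus and raises transcription of target genes, many of which carry pairs of the motif AGAACA near or far from their start. In liver these targets include enzymes that make glucose from amino acids, such as TAT and PCK1. They also include regulators that dampen inflammation or growth signals, such as TSC22D3, ZFP36 and ERRFI1, and the genes FKBP5 and PER1. RASD1, also called Dexras1, is a small GTPase of the Ras family that was named for its induction by dexamethasone. UPF1 is an RNA helicase needed for nonsense-mediated mRNA decay, which removes mRNAs with a stop codon in an unusual position, and it also acts in the decay of some mRNAs through their 3′UTRs.

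RASD1 lies at chr17:17397751-17399709 on the minus strand of GRCh37, the assembly also called hg19. Its main GENCODE transcript has 2 exons and a 3′UTR of 688 bases. The GC content of 61.6% was at the 89.7th percentile of the 15262 listed genes with a transcript sequence. Neither of its 2 annotated transcripts is marked as a target of nonsense-mediated decay, and it has no exon junction after the stop codon. Of 13150 genes with a 3′UTR, 46.1% have a transcript so marked and 4.14% have such a junction. The 250 bases before its RefSeq start, at chr17:17399710-17399959 on the minus strand, are shown because RASD1 was chosen by its values in these libraries. Capitals mark the letters TGACG, a partial cAMP response element, whose full form is TGACGTCA, which occur 133 and 78 bases before the start:
RASD1 promoter: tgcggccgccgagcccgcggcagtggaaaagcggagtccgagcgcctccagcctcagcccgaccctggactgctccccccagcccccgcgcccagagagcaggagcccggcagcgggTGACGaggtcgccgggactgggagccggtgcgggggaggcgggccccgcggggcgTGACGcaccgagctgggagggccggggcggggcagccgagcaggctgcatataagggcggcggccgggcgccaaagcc

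Promoters of 300 bases, from 250 before to 50 after the start, were found in RefSeq for 8 of the 10 genes, 14 promoters in all. Each matched 1 place on GRCh37. None was found for TAT or PCK1. Motifs were searched on both strands. The letters TGACG were in 4 of the 14 promoters, from RASD1 and TSC22D3, and in 24.6% of all 35116 RefSeq promoters. The whole element TGACGTCA was in none of the 14, and in 1.85% of all. The letters AGAACA, 1 arm of the glucocorticoid response element, were in 1 promoter each of FKBP5 and SGK1, and in 14.8% of all. The whole element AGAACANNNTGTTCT was in none of the 14, and in 0.00285% of all. These matches describe the letters in these windows only. The windows below are shown because they hold the partial elements, in capitals, next to the starts of 3 of these genes. FKBP5 is from chr6:35696343-35696372, SGK1 from chr6:134498977-134499006 and TSC22D3 from chrX:106960336-106960364, all on the minus strand of GRCh37. A second TGACG of TSC22D3 is left in lower case:
FKBP5 site: caccactaccccAGAACAaactcctacctc
SGK1 site: ggggttcataacAGAACAgggatagccgtc
TSC22D3 site: ttgcatggccccTGACGccatgtgacgca

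A different kind of sequence was searched in the 3′UTRs, where AU-rich elements bind decay proteins, among them the ZFP36 protein itself. The nonamer TTATTTATT was in the 3′UTRs of PER1 and ZFP36, and in 9.11% of 13150 genes with a 3′UTR. It was not in the 3′UTR of RASD1, which holds the shorter ATTTA at 2 places. ATTTA was in 72.1% of these genes. The nonamer is shown in capitals for PER1, from chr17:8044025-8044053 on the minus strand, and for ZFP36, from chr19:39899836-39899864 on the plus strand of GRCh37:
PER1 3′UTR site: ggggctgcacTTATTTATTgcggggagac
ZFP36 3′UTR site: tatgacgactTTATTTATTctaatatgat
Transcripts marked as targets of nonsense-mediated decay were annotated for PER1 (2 transcripts) and ERRFI1 (1 transcript) among the 9 genes. Such a transcript is annotated for 46.1% of the 13150 genes with a 3′UTR. No main transcript of the 9 genes had an exon junction after its stop codon, a feature of only 4.14% of the 13150 genes.

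The targeted gene was checked first. UPF1 was at 44.5 and 47.4 FPKM in the siControl libraries and at 20.7 and 21.9 FPKM in the siUPF1 libraries. It was at 45.1 and 57.4 FPKM in the MYC libraries and at 2835 and 2484 FPKM in the MYC-UPF1 libraries. The log2 fold change was −1.07 (SE 0.0928) after depletion and 5.68 (SE 0.11) after overexpression, at adjusted p of 0.0308 and 8.91e-09 by limma. The fit tested 13535 genes for depletion and 13251 for overexpression, those with a mean FPKM of at least 0.5 in the 4 libraries. At an unadjusted limma p of 0.05, 2162 genes were higher and 746 lower after depletion, and 82 were higher and 107 lower after overexpression. With quantile normalization the split after depletion was 1422 higher and 1409 lower, so the balance of directions over all genes depended on the scaling. All 10 hepatocyte markers were listed, with a summed level of 20260 to 23694 FPKM. AFP had the highest mean of the 10, 11804 FPKM, and FOXA2 the lowest, 17.1 FPKM, so the sum does not weigh the markers equally. Of 11 markers of leukocytes, endothelium and stroma only CD14, CD68, PECAM1 and COL3A1 had a row. Their summed level was 6.15 to 6.57 FPKM in siControl, 6.22 to 6.73 in siUPF1, 5.95 to 7.45 in MYC and 5.75 to 7.73 in MYC-UPF1. MYC replicate 1 correlated more closely with MYC-UPF1 replicate 2 (0.9977 across genes) than with MYC replicate 2 (0.9961). MYC replicate 2 likewise correlated more closely with MYC-UPF1 replicate 1 (0.9974), and the 2 MYC-UPF1 libraries correlated with each other at 0.9959.

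The genes spanned a wide range of levels per transcript length. ERRFI1 was highest with a mean of 46.8 FPKM over the 8 libraries, at the 92.6th percentile of listed genes, and SGK1 followed with 37.1 FPKM. TSC22D3 (7.43), ZFP36 (7.16), FKBP5 (5.34), PER1 (4.54) and RASD1 (3.76 FPKM) lay near the middle, and neighbours in this order overlapped in their ranges over libraries. KLF9 (1.08 FPKM) and TAT (0.533 FPKM) were low. TAT is a defining enzyme of mature hepatocytes, and its level lay at the 22.2nd percentile. On the log2(FPKM + 1) scale, which shrinks the spread of low genes, RASD1 had the largest SD over the 8 libraries, 0.473. KLF9 had the smallest, 0.0494. RASD1 was chosen by its values in these libraries, so its wide spread is not a separate result. In bulk RNA, fewer cells with a transcript and less transcript per cell cannot be told apart.

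**Figure D1:**
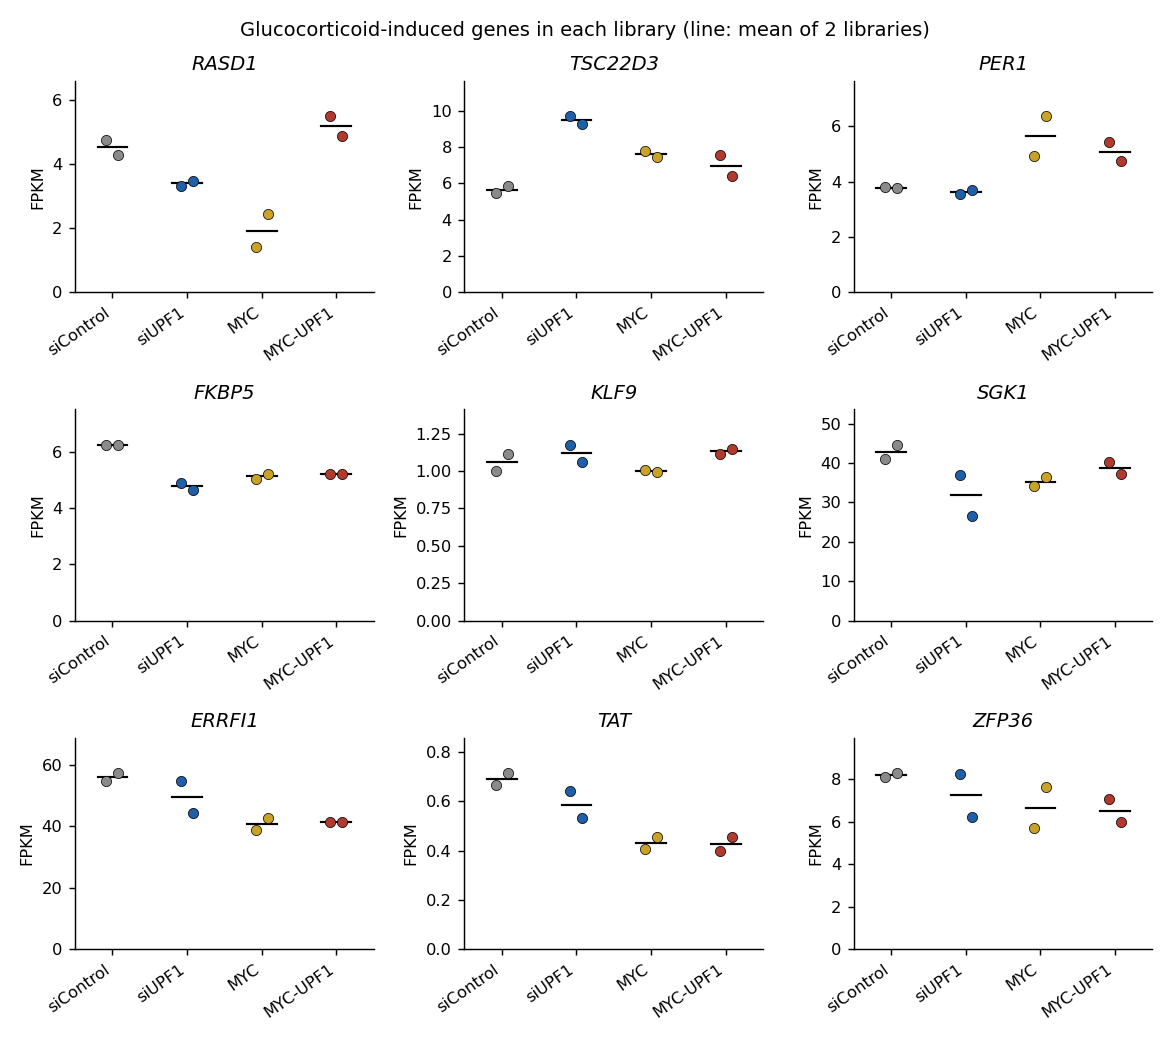
FPKM of the 9 genes in each of the 8 libraries, with 1 point per library and a line at the mean of the 2 libraries of a group, on axes that start at 0. RASD1 is lowest in the MYC libraries (1.42 and 2.43 FPKM), TSC22D3 is highest in the siUPF1 libraries (9.71 and 9.26 FPKM), and KLF9 stays between 0.996 and 1.18 FPKM.

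RASD1 was at 4.76 and 4.29 FPKM in the siControl libraries and at 3.32 and 3.48 FPKM in the siUPF1 libraries. It was at 1.42 and 2.43 FPKM in the MYC libraries and at 5.49 and 4.86 FPKM in the MYC-UPF1 libraries. Neither treated group overlapped with its own control. After depletion its mean went from 4.53 ± 0.335 to 3.40 ± 0.112 FPKM (SD, n = 2), a ratio of 0.752 and a log2 fold change of −0.33 (SE 0.0967). After overexpression its mean went from 1.93 ± 0.718 to 5.18 ± 0.442 FPKM (SD, n = 2), a ratio of 2.69 and a log2 fold change of 1.10 (SE 0.169). Both MYC libraries lay below the other 6, and the MYC group had the widest spread of RASD1. The MYC mean was 0.425 of the siControl mean, a log2 difference of −0.94 (SE 0.140). The MYC-UPF1 libraries were both above the siControl libraries, so the order of the groups was MYC, siUPF1, siControl and MYC-UPF1, with no overlap between neighbours. Without MYC replicate 1 the log2 fold change after overexpression was 0.85, and without MYC replicate 2 it was 1.35. After depletion it ranged from −0.39 to −0.27 when each library was left out. It was −0.54 once the relation of FPKM to GC content and length was removed from each library, and −0.40 with quantile normalization.

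TSC22D3, or GILZ, at chrX:106956451-107020572, is a leucine zipper protein that carries part of the anti-inflammatory action of glucocorticoids. It was at 5.47 and 5.85 FPKM in siControl and at 9.71 and 9.26 FPKM in siUPF1. The siUPF1 libraries were the highest of the 8, 1.67 times the control mean, with a log2 fold change of 0.65 (SE 0.0925). After overexpression the groups overlapped, with 7.77 and 7.43 FPKM in MYC and 7.55 and 6.39 FPKM in MYC-UPF1, and the log2 fold change was −0.11 (SE 0.123). It came to −0.22 without MYC-UPF1 replicate 1 and −0.0082 without MYC-UPF1 replicate 2. RASD1 and TSC22D3 thus stood on opposite sides of their control after depletion. The table holds 1 value per gene, and the 18 annotated transcripts of TSC22D3 were not told apart.

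FKBP5, at chr6:35541362-35696360, encodes a co-chaperone that lowers the hormone affinity of the receptor and is used widely as a readout of receptor activity. It was at 6.25 and 6.26 FPKM in siControl and at 4.89 and 4.66 FPKM in siUPF1, with a log2 fold change of −0.33 (SE 0.0901). In the plasmid groups it was at 5.05 and 5.21 FPKM in MYC and at 5.21 and 5.20 FPKM in MYC-UPF1, which overlapped. The log2 fold change after overexpression was 0.018 (SE 0.118), and it was −0.0012 without MYC replicate 1.

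SGK1, at chr6:134490386-134639250, is a kinase that regulates ion channels downstream of insulin and steroid signals. It was at 41.0 and 44.7 FPKM in siControl and at 37.0 and 26.5 FPKM in siUPF1. Both siUPF1 libraries were below both controls, and they differed from each other by more than the groups' nearest libraries did. The log2 fold change was −0.44 (SE 0.155), and it was −0.20 without siUPF1 replicate 2 and −0.67 without siUPF1 replicate 1. After overexpression SGK1 was at 34.1 and 36.4 FPKM in MYC and at 40.2 and 37.2 FPKM in MYC-UPF1, a log2 fold change of 0.13 (SE 0.0905) with no overlap. It was 0.085 without MYC replicate 1 and 0.076 without MYC-UPF1 replicate 1.

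The same siUPF1 library was low for 3 more genes. ERRFI1, at chr1:8064464-8086369, is an inhibitor of the EGF receptor. It was at 54.6 and 57.2 FPKM in siControl and at 54.5 and 44.2 FPKM in siUPF1. ZFP36, at chr19:39897487-39900052, encodes a protein that binds AU-rich elements and speeds mRNA decay. It was at 8.10 and 8.29 FPKM in siControl and at 8.27 and 6.22 FPKM in siUPF1. TAT, at chr16:71599563-71610995, degrades tyrosine for glucose production. It was at 0.664 and 0.714 FPKM in siControl and at 0.640 and 0.532 FPKM in siUPF1. The log2 fold changes after depletion were −0.18 (SE 0.119) for ERRFI1, −0.17 (SE 0.131) for ZFP36 and −0.09 (SE 0.101) for TAT. Without siUPF1 replicate 2 they came to −0.035, 0.012 and −0.042, and without siUPF1 replicate 1 to −0.33, −0.35 and −0.14. The size of these values thus rested largely on siUPF1 replicate 2. TAT and ERRFI1 had both siUPF1 libraries below both siControl libraries, ERRFI1 only narrowly, and ZFP36 overlapped.

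After overexpression none of these 3 genes stood apart from its control. ERRFI1 was at 38.6 and 42.5 FPKM in MYC and at 41.2 and 41.3 FPKM in MYC-UPF1, and ZFP36 was at 5.71 and 7.63 FPKM in MYC and at 7.06 and 6.0 FPKM in MYC-UPF1. Their log2 fold changes were 0.025 (SE 0.0887) and −0.018 (SE 0.149), and both turned sign when 1 MYC library was left out. ERRFI1 came to −0.042 without MYC replicate 1, and ZFP36 to 0.16 without MYC replicate 2. TAT was at 0.406 and 0.456 FPKM in MYC and at 0.40 and 0.454 FPKM in MYC-UPF1, under the FPKM minimum, so it was not fitted there. TAT-AS1, an antisense gene that overlaps TAT, was listed apart from it at 0.088 to 0.474 FPKM. The library kit marks strand, but whether the quantification used strand is not given in the sources used here, so reads of the pair may be mixed.

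PER1, at chr17:8043790-8059824, is a clock gene with an early response to glucocorticoids and to cAMP. It was at 3.81 and 3.77 FPKM in siControl and at 3.54 and 3.71 FPKM in siUPF1, with a log2 fold change of −0.05 (SE 0.0912). With a GC content of 62.7% it was the most GC-rich of the 9 genes, and its log2 fold change was −0.30 once the trend with GC content and length was removed. In the plasmid groups PER1 was at 4.91 and 6.37 FPKM in MYC and at 5.43 and 4.75 FPKM in MYC-UPF1. These overlapped, with a log2 fold change of −0.12 (SE 0.143) that was 0.041 without MYC replicate 2. KLF9, at chr9:72999520-73029573, is a transcription factor that feeds back on receptor targets. It was at 1.00 and 1.11 FPKM in siControl, 1.18 and 1.06 FPKM in siUPF1, 1.01 and 0.996 FPKM in MYC and 1.11 and 1.15 FPKM in MYC-UPF1. Its log2 fold changes were 0.04 (SE 0.0998) after depletion, −0.05 with quantile normalization, and 0.09 (SE 0.104) after overexpression.

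**Figure D2:**
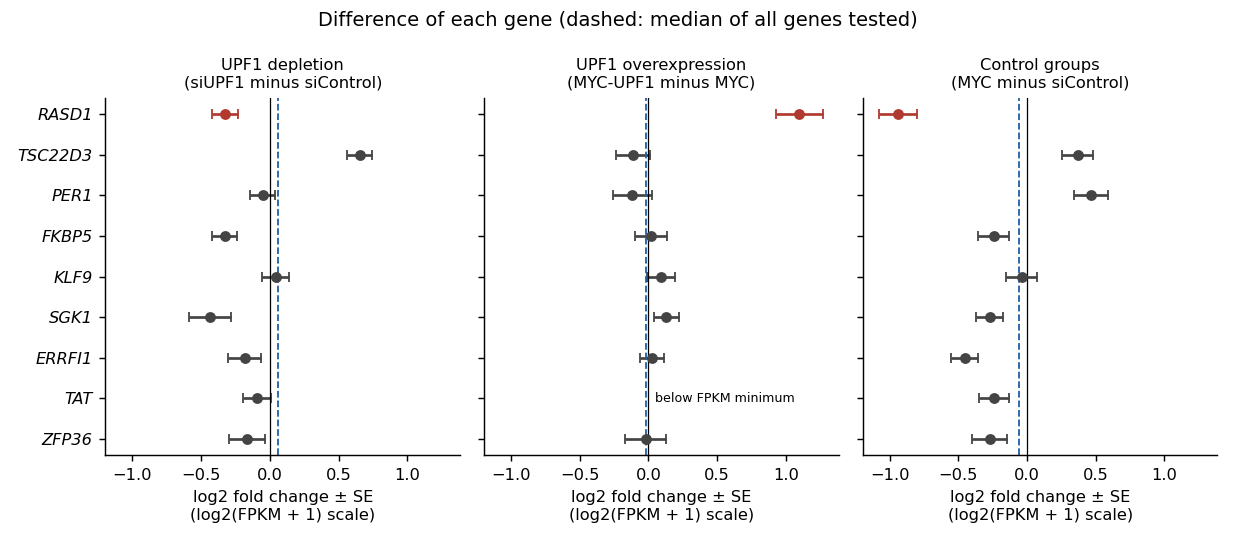
Log2 fold change on the log2(FPKM + 1) scale of each gene in the 3 comparisons, with bars of 1 standard error and a dashed line at the median of all genes tested. RASD1 lies at −0.33, 1.10 and −0.94 and TSC22D3 at 0.65, −0.11 and 0.37, while TAT was under the FPKM minimum in the overexpression libraries.

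The 9 genes lay on both sides of their controls after depletion. The threshold of an unadjusted limma p of 0.05 was passed by 1 of the 9 in the direction of higher values, TSC22D3, beside 16.0% of all genes, and by 3 in the direction of lower values, RASD1, FKBP5 and SGK1, beside 5.51% of all genes. After overexpression 1 of the 8 genes tested was past it with a higher value, RASD1, beside 0.619% of all genes, and 0 with a lower value, beside 0.807% of all genes. Nothing is read from these counts, since RASD1 was chosen by its values in these contrasts and the other genes were listed with results of these libraries known. The median log2 fold change of the 9 genes was −0.17 after depletion, against 0.057 over all genes tested. After overexpression it was 0.022 over 8 genes, against −0.014. Across 12509 genes, the log2 fold change after depletion followed GC content with a Spearman coefficient of 0.564, and after overexpression with −0.451 across 12290 genes. All of these genes share the same 4 libraries in each comparison. The most GC-rich 10% of genes had a median log2 fold change of 0.257 after depletion and −0.0814 after overexpression.

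The control groups were compared to show how far these genes differ before UPF1 is changed. Between MYC and siControl, 2 of the 9 genes, TSC22D3 and PER1, were past the threshold with higher values in MYC, beside 15.4% of all genes. The genes RASD1, FKBP5, SGK1, ERRFI1, TAT and ZFP36, 6 of the 9, were past it with lower values, beside 25.6% of all genes. With quantile normalization or median centring 3 of the 9 were past it with lower values. Without siControl replicate 1 it was 3 and without siControl replicate 2 it was 2. The log2 differences were 0.37 (SE 0.113) for TSC22D3 and 0.46 (SE 0.124) for PER1. They were −0.24 (SE 0.113) for FKBP5, −0.27 (SE 0.0980) for SGK1 and −0.45 (SE 0.0960) for ERRFI1. TAT had −0.24 (SE 0.111), ZFP36 −0.27 (SE 0.124) and KLF9 −0.04 (SE 0.113). ZFP36 came to −0.092 without MYC replicate 1 and −0.45 without MYC replicate 2, and PER1 to 0.30 without MYC replicate 2. With each library centred on its median the value of KLF9 was 0.043. The controls belong to both contrasts that chose RASD1, and these values share libraries with the UPF1 comparisons.

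Genes whose pattern was most like that of RASD1 were sought over all 8 libraries. The measure was the root mean square difference between log2(FPKM + 1) profiles, each centred on its own mean, over 13411 genes. It was smallest for DUSP1 (0.189), a phosphatase that switches off MAP kinases and is itself induced by glucocorticoids. TRIB1 (0.227), a pseudokinase that promotes protein degradation, and EDN1 (0.255), the vasoconstrictor endothelin 1, followed. SNORD58C (0.263), a small nucleolar RNA, and ATF3 (0.266), a stress-induced transcription factor, were next. The median difference over all genes was 0.464, and the profile of RASD1 itself had a root mean square size of 0.442. A flat profile would thus differ from RASD1 by 0.442, and all 5 genes differed by less. All 5 genes had both MYC libraries lowest of the 8. These genes were picked for likeness to RASD1 in these libraries. Their small differences, their low MYC values and their values after depletion are therefore not separate results. DUSP1 had both siUPF1 libraries below both siControl libraries. Values overlapped for TRIB1 (7.41 and 7.39 FPKM in siControl, 7.55 and 6.03 in siUPF1) and EDN1 (3.64 and 4.11, 4.74 and 4.01). They also overlapped for SNORD58C (7.62 and 9.40, 6.89 and 8.78) and ATF3 (4.56 and 4.78, 4.57 and 4.66).

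The other 8 genes were further down this order, with PER1 and TSC22D3 near its end. SGK1 was at rank 549 (0.405), FKBP5 at 779 (0.411), ERRFI1 at 880 (0.413) and ZFP36 at 1051 (0.416). KLF9 was at rank 1393 (0.421) and TAT at 1478 (0.422). PER1 at rank 12465 (0.552) and TSC22D3 at rank 12886 (0.582) were among the genes least like RASD1. Values of 0.405 to 0.422 are little under the 0.442 of a flat profile.

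**Figure D3:**
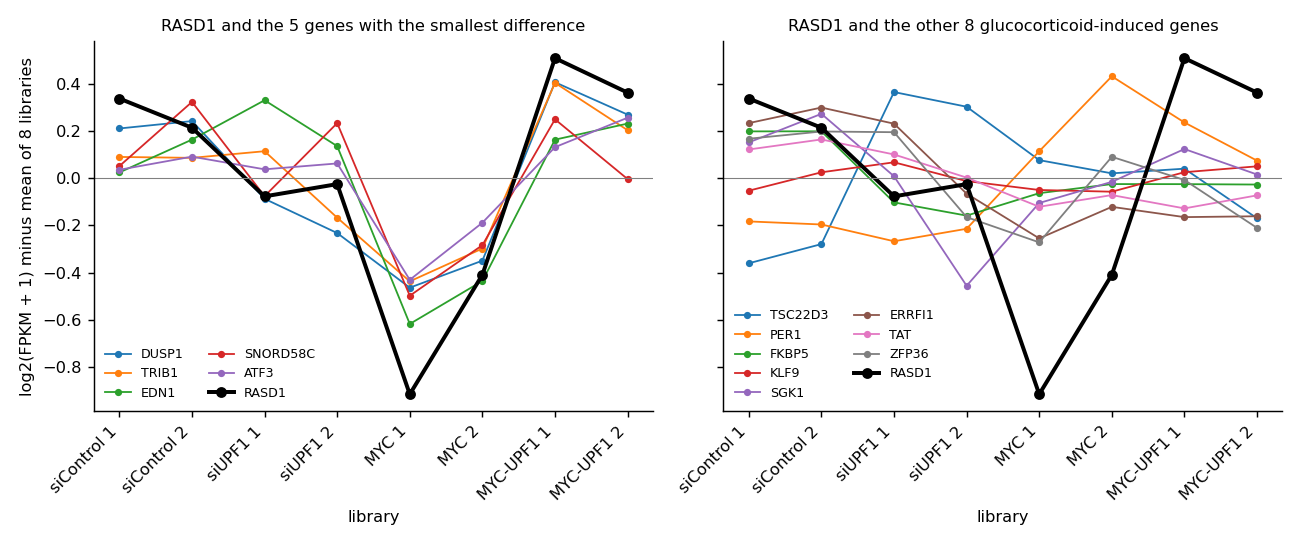
Log2(FPKM + 1) of each gene minus its mean over the 8 libraries, for RASD1 in black with the 5 genes of smallest difference (left) and with the other 8 glucocorticoid-induced genes (right), 1 point per library. DUSP1, TRIB1, EDN1, SNORD58C and ATF3 dip with RASD1 in both MYC libraries, whereas PER1 and TSC22D3 do not. The 5 genes on the left were picked for likeness to RASD1 in these same libraries.

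DUSP1, at chr5:172195099-172198198, was at 10.5 and 10.8 FPKM in siControl and at 8.39 and 7.49 FPKM in siUPF1. It was at 6.23 and 6.83 FPKM in MYC and at 12.2 and 11.0 FPKM in MYC-UPF1. Its log2 fold change was −0.39 (SE 0.0966) after depletion and 0.75 (SE 0.117) after overexpression, at adjusted limma p of 0.112 and 0.194. Between the control groups it was −0.63 (SE 0.111), at an adjusted limma p of 0.000424. The study picked DUSP1 from these libraries, so its values here are not independent of that choice. The paper also reports higher DUSP1 with UPF1 variants by RT-qPCR, western blotting and immunofluorescence, and by western blotting in other HCC lines. It further reports that DUSP1 mRNA was more stable with UPF1 overexpression after transcription was blocked. Those measurements are not part of the values given here. Like RASD1, DUSP1 was lowest in the MYC libraries. It passed the unadjusted threshold in each comparison, but not after depletion without siControl replicate 2, where the log2 fold change was −0.37 and the limma p 0.0511. Its 3′UTR has the nonamer TTATTTATT at 2 places.

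The receptor itself did not pass the threshold in any of the 3 comparisons. NR3C1, the glucocorticoid receptor gene, was at 3.48 and 3.69 FPKM in siControl and at 3.65 and 3.30 FPKM in siUPF1. It was at 3.09 and 2.93 FPKM in MYC and at 2.67 and 3.12 FPKM in MYC-UPF1. The groups overlapped in both UPF1 comparisons. The log2 fold change was −0.035 (SE 0.0967) after depletion and −0.045 (SE 0.125) after overexpression, at adjusted limma p of 0.851 and 1. It was 0.021 without siUPF1 replicate 2 after depletion and 0.038 without MYC-UPF1 replicate 1 after overexpression. Between control groups it was −0.19 (SE 0.115), at an adjusted limma p of 0.218, and its unadjusted p was 0.0495 without MYC replicate 1.

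Of 15 tested genes for the receptor and its chaperones, 1 was higher and 0 were lower after depletion at the unadjusted limma p. It was STUB1, a ubiquitin ligase that works with HSP70 and HSP90, with a log2 fold change of 0.32 (SE 0.104). Of 13 tested coregulators, 1 was higher and 0 lower, the coactivator NCOA1 at 0.27 (SE 0.0959). Of 9 tested genes that make, bind or break down steroids, 0 passed. Beside these counts stand 16.0% of all genes higher and 5.51% lower after depletion. HSD11B1, which activates cortisone in liver, had no row. The medians of these lists were −0.035, 0.051 and 0.039, against 0.057 over all genes. After overexpression 0 of 15, 0 of 13 and 0 of 8 genes of these lists passed, beside 0.619% of all genes higher and 0.807% lower.

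Among 24 other tested glucocorticoid-induced genes, 5 were higher and 2 lower after depletion, beside 16.0% and 5.51% of all genes. CDKN1C, an inhibitor of cyclin-dependent kinases, was at 4.42 and 4.40 FPKM in siControl and at 8.33 and 9.23 FPKM in siUPF1, with a log2 fold change of 0.85 (SE 0.0956) and an adjusted limma p of 0.0579. ANGPTL4, an inhibitor of lipoprotein lipase, was at 0.29 (SE 0.120). The lower pair was DUSP1 and ORM1, an acute-phase plasma protein at −0.29 (SE 0.0922). The list's median was −0.0027. After overexpression 2 were higher and 3 lower, beside 0.619% and 0.807% of all genes. The higher pair was DUSP1 and KLF6, a zinc finger transcription factor at 0.40 (SE 0.119). MT1X, a metallothionein, was at −0.40 (SE 0.147), and SCNN1A, a subunit of the epithelial sodium channel, at −0.28 (SE 0.117). The list's median was 0.0039, against −0.014 over all genes.

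Genes of the early response to cAMP and serum were listed because RASD1 and PER1 belong to early responses as well. Of 15 tested, 5 were higher and 0 lower after depletion, beside 16.0% and 5.51% of all genes. Their median was 0.12, against 0.057 over all genes. IER2 was at 0.41 (SE 0.132) and JUN, a subunit of AP-1, at 0.33 (SE 0.0958). After overexpression 2 of 14 were higher and 0 lower, beside 0.619% and 0.807% of all genes. They were ATF3 at 0.50 (SE 0.134) and FOS at 0.26 (SE 0.107). The list's median was 0.090, against −0.014 over all genes. ATF3 was at 3.02 and 3.76 FPKM in MYC and at 4.94 and 5.48 FPKM in MYC-UPF1. Of 12 paralogues of the chosen genes, 1 was higher after depletion, TSC22D4 at 0.52 (SE 0.135), and 0 after overexpression. The same shares of all genes stand beside these counts and those of the partners of RASD1. RASD2, the closest relative of RASD1, had no row. Of 12 signalling partners of RASD1, 3 were higher and 0 lower after depletion. They included ADCY6, an adenylyl cyclase, at 0.34 (SE 0.103), and APBB1, an adaptor that binds RASD1, at 0.25 (SE 0.0938). After overexpression 0 of 13 passed. In all these lists 0 genes reached an adjusted limma p of 0.05 in either UPF1 comparison with the fit used throughout. For depletion this became 3 genes with the relation to GC content and length removed. It became 1 with a mean FPKM of at least 5 and 1 with all 8 libraries in a single fit. For overexpression it became 1 with the relation to GC content and length removed. The number also changed when single libraries were left out. Counted together, the lists had 16 genes higher and 2 lower after depletion, but 9 and 11 with quantile normalization, 13 and 10 with median centring and 8 and 18 with the relation to GC content and length removed. The split of the list genes after depletion therefore depended on the scaling. After overexpression they had 4 higher and 3 lower, and 10 and 2 with that relation removed.

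**Figure D4:**
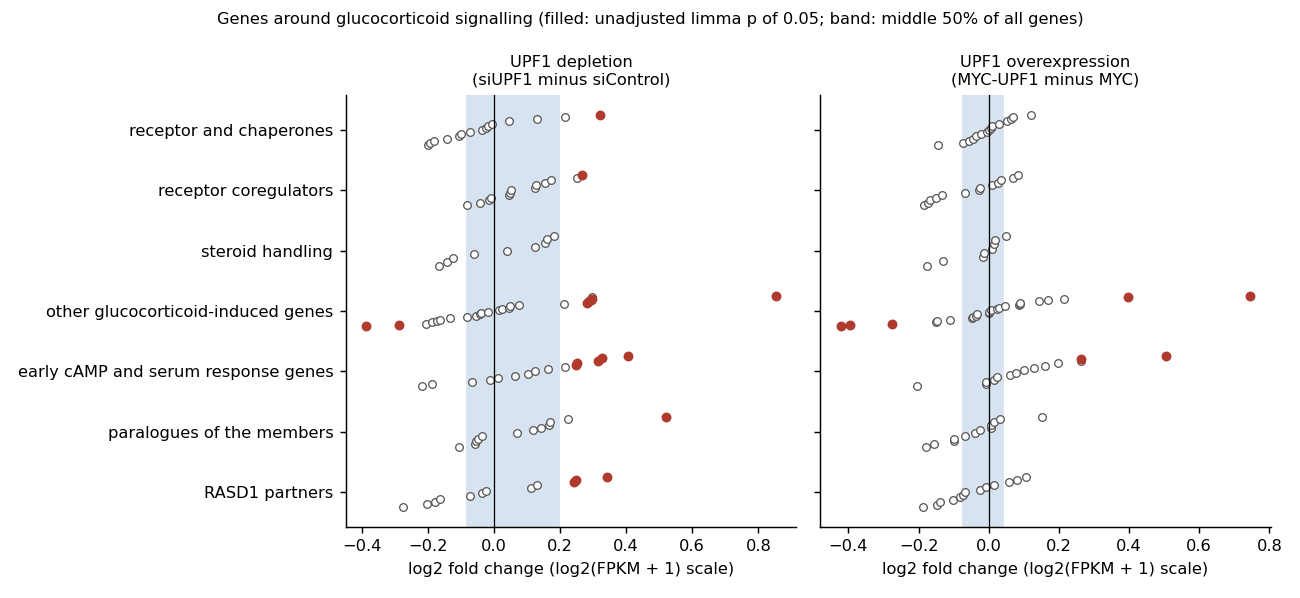
Log2 fold change on the log2(FPKM + 1) scale of each tested gene of 7 lists around glucocorticoid signalling, after UPF1 depletion (left) and overexpression (right), with 1 point per gene, filled where the unadjusted limma p was 0.05 or less. The shaded band holds the middle 50% of all genes tested. CDKN1C at 0.85 on the left and DUSP1 at 0.75 on the right stand farthest out.

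Each library was also left out in turn. The group left with 1 library was then assumed to vary like the other group, so a lost call can reflect a larger standard error and a kept one a small spread of the remaining pair. After depletion, CDKN1C and TSC22D4 passed the unadjusted limma threshold without each library in turn, with TSC22D4 at 0.34 without siUPF1 replicate 2. Without siControl replicate 1 the calls of STUB1, NCOA1, ANGPTL4, ORM1, JUN, ADCY6 and APBB1 were lost. Without siControl replicate 2 those of STUB1, NCOA1, ANGPTL4, DUSP1, ORM1, IER2 and APBB1 were lost. The fold changes moved little, and on the log2 scale they ranged over 0.21 to 0.37 for the higher genes and −0.37 to −0.24 for the lower ones. Without siUPF1 replicate 1 NCOA1 was lost at 0.23. Without siUPF1 replicate 2 ANGPTL4 was lost at 0.16 and APBB1 at 0.21, and IER2 kept its call at 0.22. Once the trend with GC content and length was removed, STUB1 came to 0.086, ANGPTL4 to 0.062, IER2 to 0.17, ADCY6 to 0.15 and APBB1 to 0.036, all under the threshold. After overexpression DUSP1, which the study picked from these libraries, and ATF3 passed without each library in turn, and KLF6, MT1X, SCNN1A and FOS did not. KLF6 was lost without MYC-UPF1 replicate 2, at 0.31. MT1X was lost without MYC replicate 2, at −0.20, and without MYC-UPF1 replicate 2, at −0.26, and was at −0.60 without MYC replicate 1. SCNN1A was lost without MYC replicate 2, at −0.18, and without MYC-UPF1 replicate 2, at −0.20. FOS was lost without MYC replicate 1, at 0.19, and without MYC-UPF1 replicate 1 or 2, at 0.26 and 0.27.

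Between the control groups the lists were counted against 15.4% of all genes higher and 25.6% lower in MYC. Among the 24 other glucocorticoid-induced genes 6 were higher and 9 lower in MYC, 13 of them at an adjusted limma p of 0.05. The metallothioneins, which bind zinc and copper, differed most. MT2A was at 180 and 189 FPKM in siControl and at 43.3 and 58.2 FPKM in MYC, with a log2 difference of −1.85 (SE 0.109) and an adjusted limma p of 2.68e-10. MT1X had −1.32 (SE 0.116). ZBTB16, a transcription factor, was higher at 0.83 (SE 0.116), and DDIT4, an inhibitor of mTORC1, at 0.67 (SE 0.117). The metallothioneins thus stood apart from ZBTB16 and DDIT4 in direction. Among 8 steroid-handling genes 2 were higher and 1 lower. SERPINA6, the plasma carrier of cortisol, was at 32.6 and 34.3 FPKM in siControl and at 55.0 and 52.5 FPKM in MYC, with 0.67 (SE 0.0955) and an adjusted limma p of 6.05e-05. The hepatocyte markers moved in this comparison as well, with 5 of 10 higher and 1 lower, among them the secreted proteins TF at 0.57 (SE 0.0872) and SERPINA1 at 0.43 (SE 0.0681). Their part in the value of SERPINA6 was not tested. AKR1D1, which reduces steroid hormones, was at −0.89 (SE 0.115). Of the 15 early response genes 1 was higher, NR4A1 at 0.54 (SE 0.121), and 8 were lower, among them CCN1 at −0.85 (SE 0.122) and CREM at −0.47 (SE 0.114). Most early response genes that passed were lower in MYC. Of the 15 genes for the receptor and its chaperones 1 was higher and 5 were lower, and of 13 coregulators 3 were higher and 1 lower. Of 12 paralogues 4 were higher and 2 lower, the latter SGK3 at −0.59 (SE 0.118) and SGK2 at −0.40 (SE 0.116). Of 12 partners of RASD1 3 were higher and 4 lower, among the latter PPARG at −0.67 (SE 0.108). Among the named genes of the receptor and coregulator lists, STUB1 at 0.22, HSP90AA1 at −0.26, EHMT2 at 0.31, EP300 at 0.27 and NRIP1 at −0.25 each lost the call without at least 1 library, and HSP90AA1 came to −0.16, EHMT2 to 0.18, EP300 to 0.14 and NRIP1 to −0.15 without MYC replicate 2. PTGES3, at −0.40, kept it without each library but came to −0.12 and lost it with the relation to GC content and length removed, as did STUB1, HSP90AA1 and NRIP1. Over the 7 lists 20 genes were higher and 30 lower, and 29 and 23 with quantile normalization.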

How the data were processed

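The members and gene lists were chosen with earlier results of these data known. Reads were trimmed and then aligned by the authors to hg19 with HISAT2 2.1.0, transcripts were assembled with StringTie 1.3.4d, and the authors deposited FPKM per gene and library. Trimmomatic 0.38 is named in the submitters' processing notes. The low values gave no steps of whole reads, with the commonest ratio covering 1.08% of 464 low genes, so depth and counting error are unknown and no count model was run. Log2(FPKM + 1) was fitted in limma 3.58.1 (R 4.3.3, lmFit and eBayes with trend) for genes whose mean FPKM reached 0.5, separately for siUPF1 against siControl, MYC-UPF1 against MYC and MYC against siControl, and p-values were Benjamini-Hochberg adjusted over all genes tested. Fold changes on this scale understate those of low genes. The threshold was an unadjusted p of 0.05, as in the study. An exact test of 2 against 2 libraries cannot pass it. The method was tested on simulated data.

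Lists came from general knowledge, 1 list gene is not reported here, and FKBP4 is in both the chaperone and the paralogue list. Named from each list, per comparison, were at most the 2 largest rises and 2 largest falls past the threshold with both treated libraries beyond both controls, besides UPF1, NR3C1 and the 5 genes most like RASD1. Gene models are GENCODE on GRCh37. Promoters are from RefSeq and were placed on GRCh37 by exact match. Alternatives were a pseudocount of 0.1, no FPKM minimum or 5, quantile normalization, median centring, a single fit of all 8 libraries, the replicate number as a block, no trend, and each library left out. Removing the GC and length trend from each library (loess, span 0.5) and a crossed block were chosen after seeing the data. Tables and figures were made in Python 3.11.15.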

Additional observations from a re-analysis of the deposited data

How the results depend on the processing

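With 2 libraries per group, the number of genes past the unadjusted limma threshold depended on the processing. It was 2908 after depletion, 1862 with a mean FPKM of at least 5, and 1435 to 5896 with each library left out (1435 and 1700 without siControl replicate 1 or 2, 5896 without siUPF1 replicate 1). It was 189 after overexpression, 409 with no FPKM minimum, 49 with at least 5, 365 after removal of the GC and length trend, and 220 to 778 with each library left out (778 without MYC replicate 1, 471 without MYC-UPF1 replicate 1). Between control groups it was 5468, 3514 with at least 5, and 3139 to 6808 with each library left out (3323 and 3139 without siControl replicate 1 or 2). List genes numbered 18 after depletion (4 to 34 with each library left out), 7 after overexpression (4 with at least 5, 12 with the trend removed, 2 to 13 with each library left out) and 50 between controls (28 to 54). Of the glucocorticoid-induced genes 4, 1 and 8 were past it. These became 2 to 6 after depletion with each library left out, 0 after overexpression with at least 5, where RASD1 was under the minimum, and 5 between controls with at least 5, quantile normalization or median centring, and 4 to 7 with each library left out. The split of all genes after depletion was 2162 higher and 746 lower, 1422 and 1409 with quantile normalization, 1602 and 1271 with median centring and 1480 and 1497 with the trend removed. Between controls it was 2052 and 3416, 2767 and 2707, 3180 and 2276, and 2537 and 2511. Genes past an adjusted p of 0.05 after depletion numbered 5, 316 with at least 5, 368 with all libraries in a single fit, 429 with the trend removed, 0 with no FPKM minimum, quantile normalization or median centring, and 115 to 4539 with each library left out (115 and 153 without siControl replicate 1 or 2, 4539 and 1240 without siUPF1 replicate 1 or 2). NR3C1 ranged from −0.091 to 0.021 after depletion and from −0.13 to 0.038 after overexpression with each library left out, above 0 without siUPF1 replicate 2 and without MYC-UPF1 replicate 1. The cause of these changes was not tested.

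By the labels, libraries with the same number shared only the number. Their deviations from the group mean correlated at −0.129, −0.569 and 0.00999 across genes in the 3 comparisons. The fit used throughout had no pairing. With the replicate number as a block 2586, 170 and 5919 genes passed, 20 of them adjusted after overexpression. With crossed numbers 3102 genes passed after depletion and 1227 after overexpression, with 24 list genes and 2 of the glucocorticoid-induced genes in the latter.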
